A study of Macaca mulatta with 2 samples.

Results

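The genes examined were those of cholesterol synthesis and sterol transport, named by symbol in a list of 34 genes that covers the enzymes from acetoacetyl-CoA to cholesterol, the sterol sensors and the proteins that carry, export, store or break down sterols. Of these, 31 were among the 16684 genes of the deposited table, and *CYP51A1*, *HSD17B7* and *CYP46A1* were not analysed here. The rule that defines the list names genes by function and uses no measured value, although the list was drawn up when earlier results of these data were known. Total RNA came from untreated, wild-type rhesus macaque (*Macaca mulatta*) optic nerves, which formed 1 condition with 2 libraries, named Rep1 and Rep2 in the table. The methods give a single 12-year-old male, whose eyes were collected postmortem, as the source, whereas the deposited design speaks of 2 animals. The spread between the libraries may thus be technical or may include a difference between nerves or between animals. Values are TPM, a share of all length-corrected reads of a library, so levels may be compared between genes. With 2 libraries of the same condition no test was run, since a two-sided exact test could not give a p below 0.5.

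Cholesterol is built in the cell from acetyl-CoA through mevalonate, squalene and lanosterol, and almost none crosses from the blood into nervous tissue. Oligodendrocytes, the myelin-forming cells of the optic nerve, need large amounts of it because cholesterol is a main lipid of myelin, and astrocytes release it on particles that carry apolipoprotein E. Low sterol in the endoplasmic reticulum releases the transcription factor SREBP-2, which acts on the genes of the pathway together with NF-Y and Sp1, whereas oxysterols activate the liver X receptors, which raise the genes of export.

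The libraries stood apart before any sterol gene was considered. Rep1 was the shallower library, with each of its reads weighing as much as 17.2 reads of Rep2, and 38.5% of all genes were listed at 0 in Rep1 against 12.5% in Rep2. All 8 oligodendrocyte markers were above 0 in both libraries, and their summed level was 46086 in Rep1 and 212682 TPM in Rep2, so the defining genes of the labelled tissue were present. The 8 astrocyte markers, likewise all above 0 in both libraries, summed to 1148 and 7342 TPM. The 8 markers of photoreceptors and retina summed to 3829 in Rep1 and 5.90 TPM in Rep2. Of these retinal markers, 5 were at least 2-fold higher in Rep1, while *ARR3* was listed at 0 in Rep1 and *CRX* in Rep2. The part of retinal RNA and of depth in the differences given here was not tested. In bulk tissue, fewer cells of a type and less RNA per cell cannot be told apart.

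The starts of most synthesis enzyme genes, though not of most other sterol genes, carried a sequence feature that the choice of genes had not used. The letters CCAAT, the core of the box that NF-Y binds, were searched on both strands from 250 bases before to 50 bases after the annotated gene start in the Mmul_10 genome. They were present at 13 of the 16 listed synthesis enzymes (81.2%), at 5 of the 15 other sterol genes (33.3%) and at 34.5% of the 16267 protein-coding genes that were searched. The last 100 bases before the start are shown for selected enzymes from each stage of the pathway and for *INSIG1*, because they let the repeated boxes be seen. Enzymes not shown include *FDFT1*, whose matches lay farther from the start, and *ACAT2* and *TM7SF2*, which had none. *EBP* is shown as an enzyme gene without the box. Capitals mark CCAAT or its reverse complement, and each line is read 5′ to 3′ along the gene.
*HMGCS1* (chr6:43321488-43321587, minus strand): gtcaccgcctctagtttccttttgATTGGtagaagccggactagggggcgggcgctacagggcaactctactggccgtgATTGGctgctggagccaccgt
*MVK* (chr11:109220284-109220383, plus strand): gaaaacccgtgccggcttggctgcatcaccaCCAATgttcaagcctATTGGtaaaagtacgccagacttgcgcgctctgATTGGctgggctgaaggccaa
*MVD* (chr20:75677891-75677990, minus strand): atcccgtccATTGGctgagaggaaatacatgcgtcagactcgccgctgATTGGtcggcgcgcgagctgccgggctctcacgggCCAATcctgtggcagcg
*FDPS* (chr1:95705049-95705148, minus strand): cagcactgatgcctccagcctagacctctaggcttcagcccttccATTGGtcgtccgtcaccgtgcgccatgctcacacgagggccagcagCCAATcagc
*LSS* (chr3:555985-556084, plus strand): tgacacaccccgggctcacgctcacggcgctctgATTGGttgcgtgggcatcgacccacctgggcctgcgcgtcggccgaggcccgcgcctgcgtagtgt
*MSMO1* (chr5:162734392-162734491, plus strand): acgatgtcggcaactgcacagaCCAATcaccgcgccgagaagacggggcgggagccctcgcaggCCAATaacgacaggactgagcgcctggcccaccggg
*NSDHL* (chrX:148843395-148843494, plus strand): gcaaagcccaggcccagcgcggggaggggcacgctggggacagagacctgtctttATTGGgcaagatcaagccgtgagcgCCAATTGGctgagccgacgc
*DHCR7* (chr14:3506964-3507063, plus strand): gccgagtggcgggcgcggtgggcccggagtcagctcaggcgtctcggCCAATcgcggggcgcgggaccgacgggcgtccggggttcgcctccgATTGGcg
*INSIG1* (chr3:181310855-181310954, plus strand): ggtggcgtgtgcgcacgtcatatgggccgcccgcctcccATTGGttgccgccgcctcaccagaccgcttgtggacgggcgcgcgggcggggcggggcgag
*EBP* (chrX:48510511-48510610, plus strand): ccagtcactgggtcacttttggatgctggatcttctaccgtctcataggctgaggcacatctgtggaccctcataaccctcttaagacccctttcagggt

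At least 2 matches lay in the window of 9 of the 16 synthesis enzymes (56.2%), of 1 of the 15 other sterol genes (*NPC2*) and of 10.8% of all genes searched, with overlapping matches such as those of *NSDHL* counted apart. In the last 100 bases before the start, 12 of the 16 enzymes (75.0%) and 17.6% of all genes held a match. *ACAT2*, *TM7SF2* and *EBP* were the enzymes without one in the whole window. The letters GGGCGG, bound by Sp1, were at 13 of 16 enzymes (81.2%), at 13 of 15 other sterol genes (86.7%) and at 53.6% of all genes, and the windows of the 31 sterol genes were richer in G and C than those of all genes (median 66.7% against 60.3%). A form of the sterol regulatory element, TCACNCCAC, was found at *HMGCS1* alone among the 31 sterol genes and at 1.49% of all genes. It lay 180 bases before the start and is in capitals here, in 69 bases of the minus strand of chr6:43321629-43321697, 5′ to 3′.
*HMGCS1* sterol form: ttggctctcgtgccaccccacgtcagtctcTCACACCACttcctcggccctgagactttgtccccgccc

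A match is a description of letters and not a binding site, and a window without one says nothing of the factor.

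**Figure D1:**
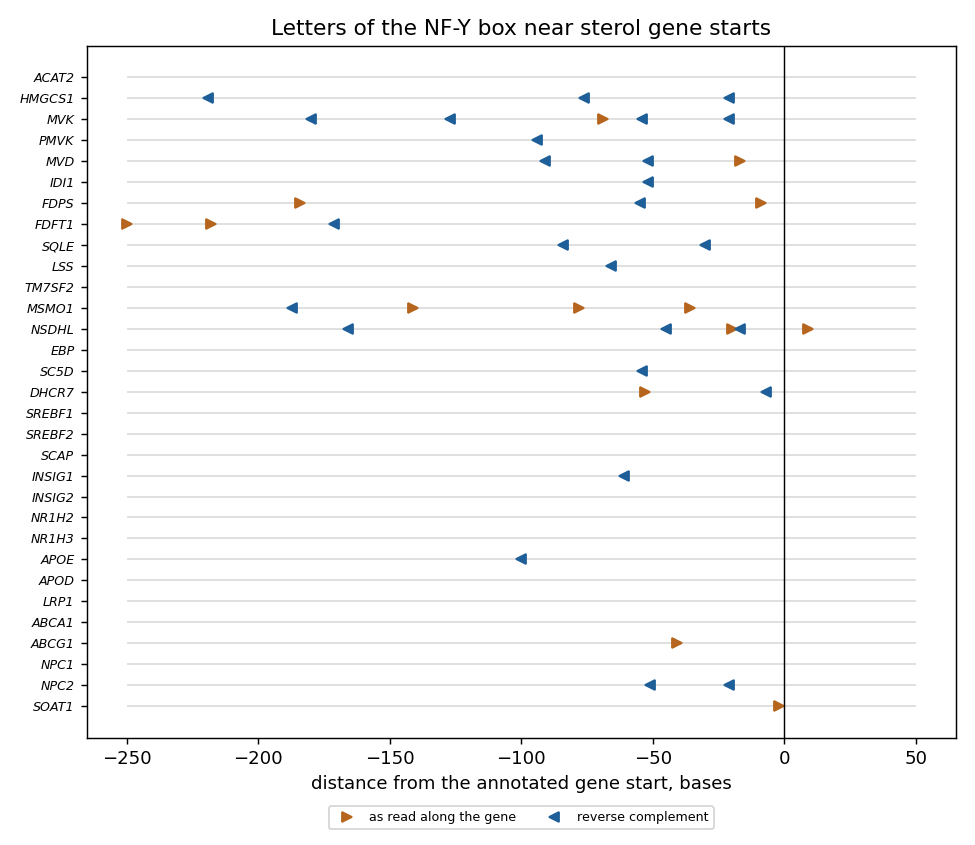
Positions of CCAAT, the NF-Y box, in the promoter windows of the 31 sterol genes. The horizontal axis is the distance from the annotated gene start in bases, each grey line is 1 gene, and triangles mark matches as read along the gene or as the reverse complement. The 13 enzymes with a match lie in the upper rows, and 5 of the 15 other genes have one.

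As a group the sterol genes stood high among the genes of the nerve. Of the 31 genes, 30 were above 0 in at least 1 library and 27 in both, and the 3 listed at 0 in Rep1 alone compare with 30.2% of all genes that were above 0 in at least 1 library. Their median percentile by mean TPM was 77.3 among the 14693 genes above 0 in at least 1 library, and 24 of the 30 stood above percentile 50. The median percentile was 67.1 within Rep1 and 84.7 within Rep2. The 31 genes together took 951 TPM in Rep1 (0.0951% of the library) and 6625 TPM in Rep2 (0.663%). Most of that came from 2 carriers, as *APOE* and *APOD* led in both libraries, whereas the 16 synthesis enzymes summed to 216 and 1109 TPM.

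**Figure D2:**
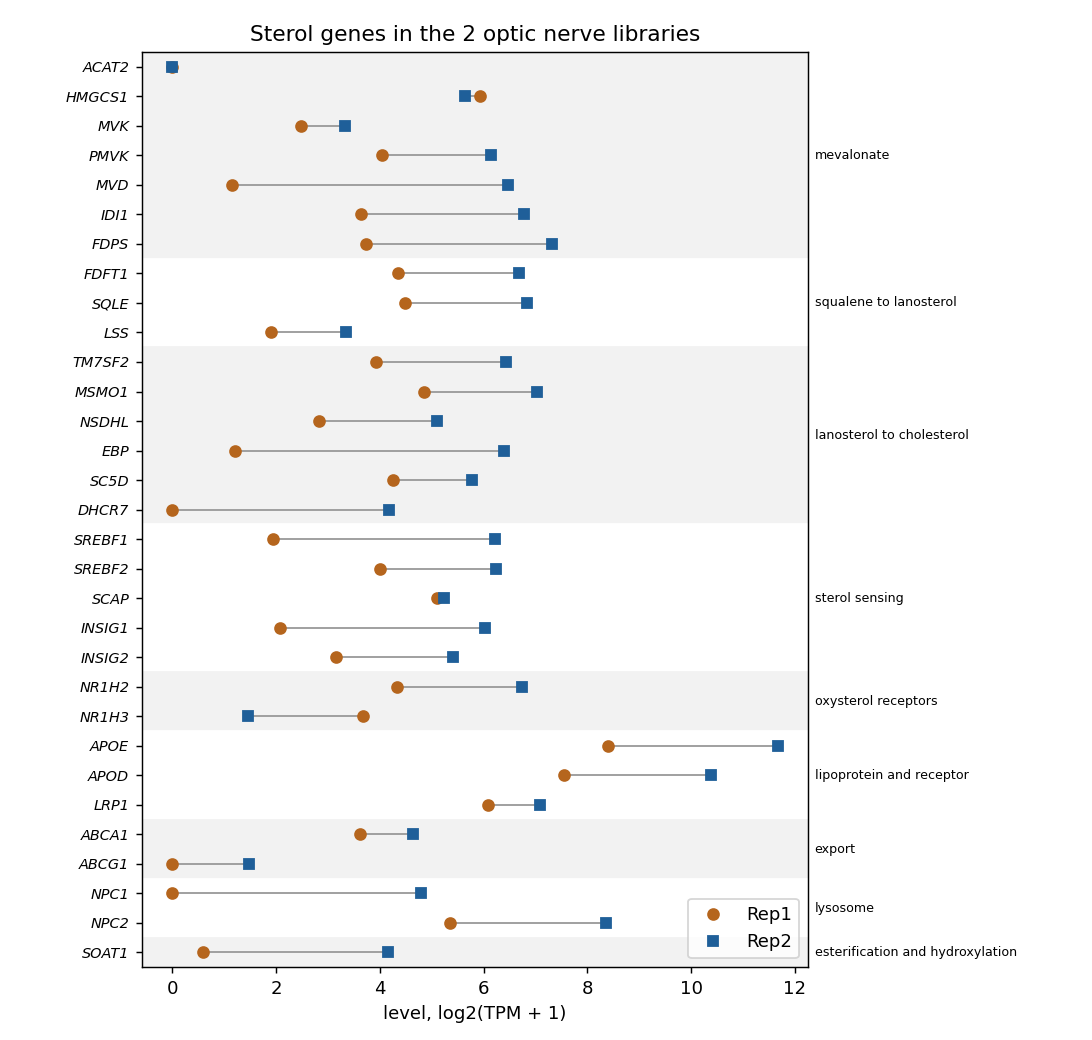
Levels of the 31 sterol genes, grouped by role. The horizontal axis is log2(TPM + 1), circles are Rep1, squares are Rep2, and a grey line joins the values of a gene. *APOE* and *APOD* lie farthest to the right in both libraries, and *HMGCS1* and *NR1H3* are the genes whose Rep1 value is the higher.

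Differences between the libraries were taken as Rep1 minus Rep2 on a scale of log2(TPM + 1), on which low genes appear closer than they are. Of the 30 genes above 0, 26 (against 51.3% of all genes) were at least 2-fold higher in Rep2, 1 (against 14.8%) was at least 2-fold higher in Rep1 and 3 were within 2-fold. Of the 26, *DHCR7*, *ABCG1* and *NPC1* were listed at 0 in Rep1. In all, 28 of the 30 (against 75.9% of all genes) were lower in Rep1 by any amount. The median difference was -2.34 for the sterol genes and -1.07 for all 14693 genes. Scaling with the median of ratios takes out most of a general shift, here by multiplying Rep1 2.28-fold relative to Rep2. After it, 21 sterol genes (against 33.8% of all genes) were at least 2-fold higher in Rep2 and 3 (against 23.7%) in Rep1, and the median was -1.19 for the sterol genes and -0.38 for all genes. The direction of the group median was thus the same under both scalings. By rank within each library, 24 of the 30 sterol genes (against 62.6% of all genes) had the higher percentile in Rep2.

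**Figure D3:**
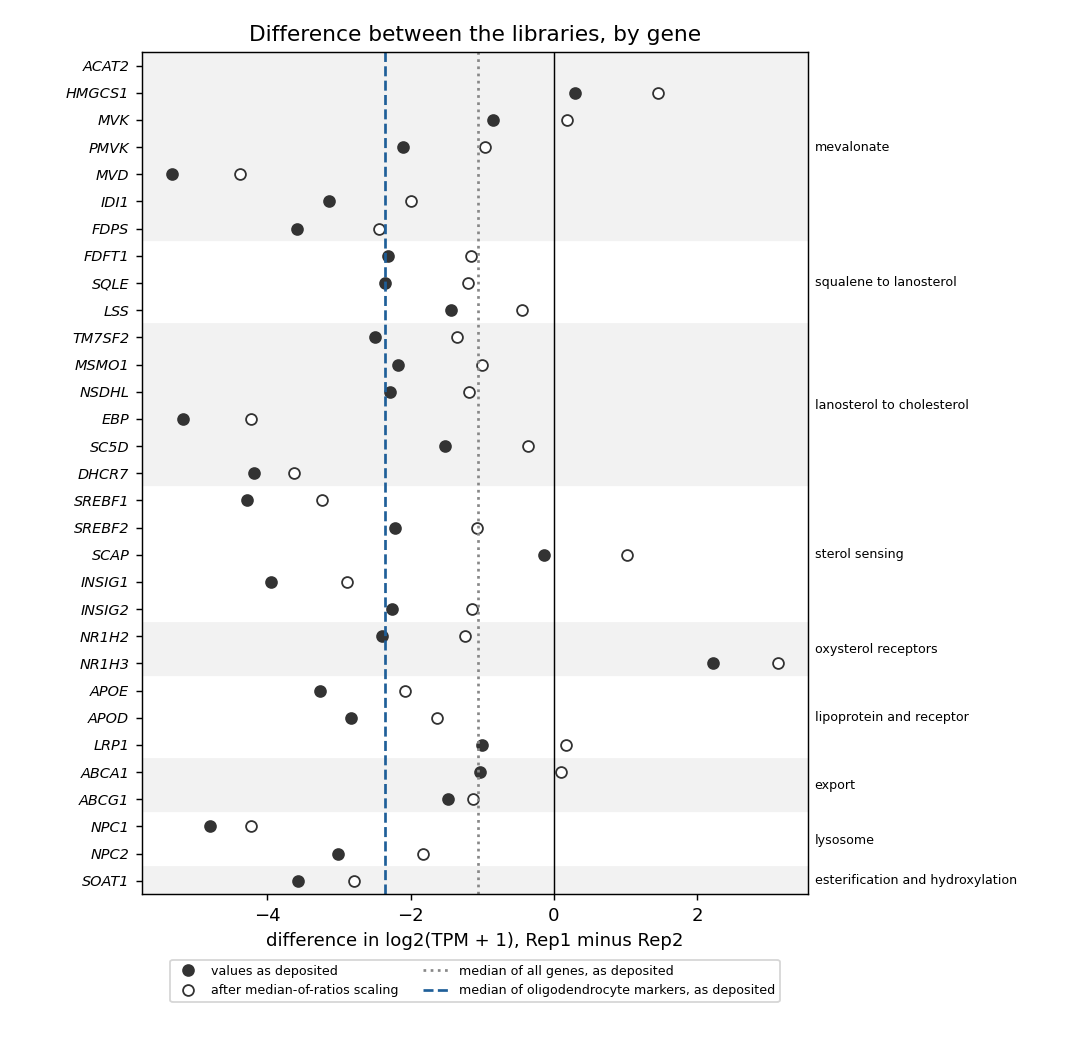
Difference of each sterol gene between the libraries. The horizontal axis is Rep1 minus Rep2 in log2(TPM + 1), filled circles are values as deposited, open circles are values after median-of-ratios scaling, and vertical lines mark the medians of all genes and of the oligodendrocyte markers as deposited. Several genes lie on the line of the oligodendrocyte markers at -2.36, *MVD* and *EBP* lie farthest to the left, and *NR1H3* lies farthest to the right.

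In the mevalonate stage, which makes the 5-carbon units of all sterols, *HMGCS1* (chromosome 6, 43297245 to 43321487) encodes the cytosolic HMG-CoA synthase. It stood at 59.98 in Rep1 and 48.9 TPM in Rep2, a mean of 54.4 ± 7.86 TPM (SD, n = 2). As deposited, the libraries were closer here than for any other synthesis enzyme above 0, with a difference of 0.29, which was 1.46 after scaling, both with Rep1 higher. The smallest read numbers that explain its values are 1 in Rep1 and 14 in Rep2, which are lower bounds, so the read support of the Rep1 value is not known beyond that.

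The kinases *MVK* and *PMVK*, which phosphorylate mevalonate in turn, followed in the pathway. *MVK* was at 4.59 in Rep1 and 9.09 TPM in Rep2, and *PMVK* at 15.4 and 69.8 TPM. *MVD*, the decarboxylase that ends this stage, was at 1.22 in Rep1 and 88.1 TPM in Rep2. Its difference of -5.33, or -4.38 after scaling, was the largest of the 30 genes in size at a pseudocount of 1. Its values rested on at least 1 read in Rep1 and 1240 in Rep2.

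*IDI1*, the isomerase of isopentenyl diphosphate, stood at 11.5 in Rep1 and 109 TPM in Rep2. *FDPS*, which joins these units to farnesyl diphosphate, stood at 12.2 in Rep1 and 158 TPM in Rep2. Within each library the 4 levels from *PMVK* to *FDPS* were thus ordered differently, with *MVD* the lowest in Rep1 and the third in Rep2.

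*ACAT2*, the cytosolic thiolase that begins the pathway, was the only sterol gene listed at 0 in both libraries. In the annotation it lies on chromosome 4 from 10824164 to 10838371 on the minus strand, and 1516 of its 1600 exonic bases (94.8%) are also exonic in *TCP1* on the opposite strand. *TCP1*, a chaperonin subunit, was at 130 in Rep1 and 169 TPM in Rep2. The library kit does not mark strand, so reads from these genes cannot be told apart, and the listing at 0 does not show that *ACAT2* was not transcribed. How reads from shared exons were counted is not given in the sources used here, and the part of the overlap in the listing was not tested.

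From farnesyl diphosphate to lanosterol, 3 enzymes act in turn. *FDFT1*, which commits the pathway to sterols by making squalene, was at 19.5 in Rep1 and 102 TPM in Rep2. *SQLE*, the squalene epoxidase and a rate-limiting step, was at 21.4 in Rep1 and 114 TPM in Rep2. The ratio of *FDFT1* to *SQLE* was 0.915 in Rep1 and 0.896 in Rep2, while the genes differed 5.20-fold and 5.32-fold between the libraries. Pathway neighbours did not keep their proportion in general. *FDPS*, the step before, was below *FDFT1* in Rep1 (12.2 against 19.5 TPM) and above it in Rep2 (158 against 102 TPM). *LSS*, the cyclase that closes the sterol rings, was lower, at 2.77 and 9.15 TPM.

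The 6 listed enzymes from lanosterol to cholesterol were all higher in Rep2 (against 75.9% of all genes). They stayed so after scaling, for which no share of all genes was taken. *SC5D* was then at -0.36, near the median of all genes (-0.38). *MSMO1*, a C4-methyl oxidase, was the highest of them, with 27.9 in Rep1 and 129 TPM in Rep2. *TM7SF2*, a C14 reductase, was at 14.3 and 85.3 TPM, and *NSDHL*, which acts after *MSMO1*, at 6.06 and 33.5 TPM. *SC5D*, the desaturase near the end of the route, differed least in this stage, with 18.1 in Rep1 and 53.7 TPM in Rep2.

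*EBP*, the sterol isomerase, was at 1.31 in Rep1 and 82.8 TPM in Rep2, a difference of -5.18 that came next to that of *MVD*. Its values rested on at least 1 read in Rep1 and 1088 in Rep2. *DHCR7*, the last reductase on 1 branch of the route, was listed at 0 in Rep1 but reached 17.1 TPM in Rep2. Of the 200 genes nearest to *DHCR7* in Rep2, 15.0% were also listed at 0 in Rep1, so a 0 at that level was not common but not rare. In the annotation 10.9% of the exonic bases of *EBP* are shared with *PORCN* on the same strand, and 4.94% of those of *TM7SF2* with *VPS51*. A smaller share was that of *SQLE*, at 3.77% with *ZNF572* on the same strand. With genes on the opposite strand the shares were 3.35% for *NPC1*, 2.56% for *ABCA1* and 1.52% for *LSS*. The overlaps make the levels of these genes uncertain, by an amount that these shares do not give.

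Among the sensors, *SCAP*, which escorts SREBP proteins out of the endoplasmic reticulum, stood at nearly the same level in both libraries. It was at 33.3 in Rep1 and 36.7 TPM in Rep2, a mean of 34.97 ± 2.43 TPM (SD, n = 2). Its difference was -0.14 as deposited and 1.02 after scaling, so its direction depended on the scaling. *SREBF2*, which encodes SREBP-2, was at 15.1 and 74.1 TPM.

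*SREBF1*, whose products act mainly on fatty acid synthesis, was at 2.83 in Rep1 and 73.8 TPM in Rep2. The level of *SREBF2* was hence 5.35 times that of *SREBF1* in Rep1 and 1.005 times in Rep2. The Rep1 values rested on at least 6 reads for *SREBF2* and 1 for *SREBF1*. *INSIG1* and *INSIG2* encode the proteins that hold SCAP back when sterol is plentiful, and *INSIG1* is itself a target of SREBP. *INSIG1* was at 3.23 in Rep1 and 64.2 TPM in Rep2, and *INSIG2* at 7.88 and 41.7 TPM. *INSIG2* was the higher of them in Rep1, by 2.44 times, and the lower in Rep2, at 0.650 of *INSIG1*. The listed order within this family thus differed between the libraries. In Rep1 it rested on at least 4 reads for *INSIG1* and 1 for *INSIG2*, so its read support is not known beyond that.

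The liver X receptors gave the widest disagreement within a family. *NR1H2*, which encodes the broadly expressed liver X receptor beta, was at 19.2 in Rep1 and 106 TPM in Rep2. *NR1H3*, which encodes the alpha form known from macrophages and liver, was at 11.8 in Rep1 and 1.76 TPM in Rep2. It was the only sterol gene at least 2-fold higher in Rep1 as deposited, with a difference of 2.22 and of 3.12 after scaling. These values rested on at least 9 reads in Rep1 and 23 in Rep2, and 1.83% of its exonic bases are shared with *ACP2* on the opposite strand. *NR1H2* was above *NR1H3* in both libraries, 1.63 times in Rep1 and 60.5 times in Rep2. Of the 8 microglia and macrophage markers, *AIF1* was higher in Rep1 as deposited, at 113 TPM against 64.5 TPM. The list as a whole had a median difference of -2.61, with 7 of 8 lower in Rep1, and summed to 228 in Rep1 and 522 TPM in Rep2.

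The carriers of lipid were the most abundant sterol genes. *APOE*, the main lipoprotein component made by glia, lies on chromosome 19 from 44944814 to 44948739 and reached 337 in Rep1 and 3259 TPM in Rep2, at percentiles 96.6 and 99.9. Its mean was 1798 ± 2066 TPM (SD, n = 2). *APOD*, a lipocalin made by glia and fibroblasts, on chromosome 2 from 2403317 to 2415004, was second in both libraries, with 186 in Rep1 and 1326 TPM in Rep2. *APOE* exceeded *APOD* by 1.81 times in Rep1 and by 2.46 times in Rep2. *LRP1*, a large receptor that takes up *APOE* particles, was at 67.0 and 136 TPM, and its difference turned from -1.01 to 0.17 with scaling. Among all genes of the table, those whose values in the libraries lay nearest to those of *APOE* were *IGFBP5*, *COL1A2*, *GSN*, *ANXA2* and *SFRP4*, between 0.414 and 0.503 away on the log2(TPM + 1) scale over 2 libraries.

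Genes of export were low beside the carriers. *ABCA1*, which loads cholesterol onto apolipoproteins, was at 11.2 in Rep1 and 23.9 TPM in Rep2, a difference of -1.03 that became 0.093 after scaling. *ABCG1*, which passes cholesterol to formed particles, was listed at 0 in Rep1 but reached 1.79 TPM in Rep2. Of the 200 genes nearest to it in Rep2, 54.0% were also listed at 0 in Rep1.

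In the lysosome, NPC2 binds cholesterol freed from lipoproteins and hands it to NPC1 in the membrane. *NPC2* was the third sterol gene by mean level, at 39.7 in Rep1 and 327 TPM in Rep2, whereas *NPC1* was listed at 0 in Rep1 but reached 26.7 TPM in Rep2. A 0 in Rep1 was found in 11.5% of the 200 genes nearest to *NPC1* in Rep2. *NPC2* was 12.2 times *NPC1* in Rep2. *SOAT1*, which esterifies cholesterol for storage, was at 0.509 in Rep1 and 17.0 TPM in Rep2, on at least 1 and 573 reads.

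Most neighbours in the order of the levels did not differ beyond their spread, which sorting by level itself makes likely. The SD of a single library was taken from how far Rep1 and Rep2 lay apart for the 200 genes of most similar mean. Ordered by mean TPM, 27 of the 29 neighbouring pairs among the 30 genes were less than 1 such SD apart on the log2(TPM + 1) scale. On that scale some pairs stood in the opposite order, as *MVD* and *SREBF2* did, with a gap of -1.31. The exceptions were *APOD* above *NPC2*, by 1.25 SDs, and *LSS* above *ABCG1*, by 1.22 SDs. Both libraries kept the order of 6 of the 29 pairs. Over all 351 pairs of the 27 genes above 0 in both libraries, 248 (70.7%) stood in the same order in Rep1 and Rep2. For 15 of the 30 genes (against 54.4% of all genes) the SD of the libraries was at least the mean, a share near that of all genes.

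Some sterol genes differed between the libraries by nearly the same amount as the median oligodendrocyte marker. The 8 oligodendrocyte markers had a median difference of -2.36, and 9 of the 30 sterol genes (against 9.58% of all genes) lay within 0.25 of it. These were *PMVK*, *FDFT1*, *SQLE*, *TM7SF2*, *MSMO1*, *NSDHL*, *SREBF2*, *INSIG2* and *NR1H2*, whose TPM were between 4.52-fold and 5.97-fold higher in Rep2. This width was chosen after the values had been seen, and the count is a description. When only genes averaging 10 TPM or more were kept, 9 of 24 sterol genes (37.5%) and 10.6% of all genes lay within it. The marker median lay close to that of the sterol genes (-2.34) and away from that of all genes (-1.07). A share above that of all genes was thus largely set by the choice of centre. The amount was not particular to myelin. Medians of astrocyte markers (-2.17) and of desaturases and elongases (-2.43) also lay within this width, whereas that of the sphingolipid and galactolipid list (-3.31) did not. The genes of that list ran from -5.17 to 3.15, and *UGT8* (-2.13) and *SPTLC1* (-2.48) among them lay within the width. *MBP*, the most abundant gene of the table, was at 43721 in Rep1 and 199595 TPM in Rep2, a difference of -2.19.

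The median difference was -2.32 for the 15 synthesis enzymes above 0 and -2.40 for the 15 other sterol genes, which lay close together. Fibroblast markers had a median of -3.16, astrocyte markers of -2.17 and endothelial and pericyte markers of -1.63. The sphingolipid and galactolipid list had a median of -3.31 over 10 genes, and the desaturases and elongases of fatty acids one of -2.43 over 9 genes. Photoreceptor markers, at 2.69, lay on the other side of 0.

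**Figure D4:**
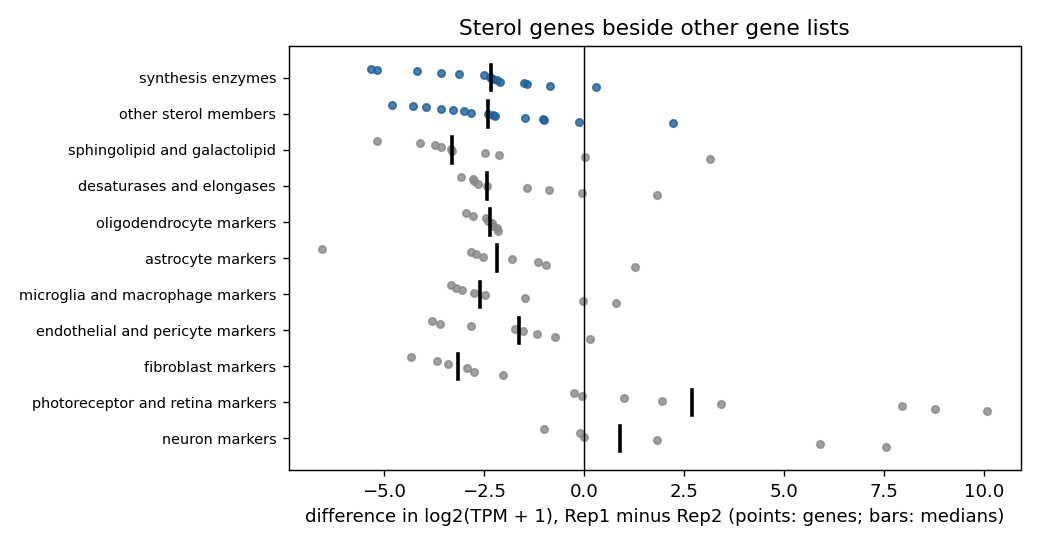
Differences between the libraries for the sterol genes beside other lists. The horizontal axis is Rep1 minus Rep2 in log2(TPM + 1), points are genes above 0 in at least 1 library and black bars are medians. The oligodendrocyte markers lie close together about -2.36, the sterol genes spread from -5.33 to 2.22, and the photoreceptor markers reach above 0.

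A second list of 39 sterol genes outside the first was examined for the wider pathway, of which 37 were listed. All 37 were above 0 in at least 1 library, 25 were at least 2-fold higher in Rep2, 4 were at least 2-fold higher in Rep1 and 8 were within 2-fold, with a median difference of -1.87, against the shares of all genes of 51.3% and 14.8% and their median of -1.07. Of the 37, 12 were listed at 0 in Rep1, near the general share of 30.2% of all genes. *CLU*, which encodes the lipid carrier clusterin, was the highest at 809 in Rep1 and 10446 TPM in Rep2, above *APOE* in both libraries. *CYP39A1* and *CYP27A1*, hydroxylases of oxysterols and cholesterol, were at 39.1 and 182 TPM and at 24.5 and 176 TPM. *OSBPL1A*, a sterol-binding protein of late endosomes, was at 101 in Rep1 and 376 TPM in Rep2. The lowest of the list was *SOAT2*, an esterifying enzyme of liver and gut, listed at 0 in Rep1 and at 0.608 TPM in Rep2.

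The 4 genes of this list that were at least 2-fold higher in Rep1 were *VLDLR*, *GRAMD1B*, *ABCG4* and *OSBP*. *VLDLR*, a lipoprotein receptor, was at 102 in Rep1 and 10.1 TPM in Rep2. *GRAMD1B*, which moves cholesterol from the plasma membrane to the endoplasmic reticulum, was at 29.0 and 1.75 TPM, *ABCG4*, an exporter known from neurons and retina, at 3.15 and 0.161 TPM, and *OSBP*, which exchanges sterol at Golgi contacts, at 84.7 and 41.1 TPM. Scaling raises Rep1 against Rep2, so these 4 genes had to stay higher in Rep1 after it. The photoreceptor and neuron marker lists had medians of 2.69 and 0.90 as deposited and of 3.22 and 1.95 after scaling. As deposited, 2 of the 8 photoreceptor markers and 3 of the 6 neuron markers were lower in Rep1 (against 75.9% of all genes). The part of retinal RNA in these levels was not tested.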

How the data were processed

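The 2 optic nerve libraries were prepared by a SMARTer kit for low RNA input. Per the submitters, trimming was done by Trim Galore 0.6.6, alignment to Mmul_10 by STAR 2.7.1a and counting by featureCounts 1.5.3. The authors then normalized to TPM, and the deposited table holds TPM for 16684 genes in Rep1 and Rep2, which cannot be tied to the sample titles. TPM keeps no read totals. Relative depth came from ratios of the values of a gene, written as whole read numbers (tolerance 1e-12), which succeeded for 99.9% of 10168 genes above 0 in both libraries.

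Means, SDs and percentiles used Python 3.11, numpy 2.4.6 and pandas 2.3.3, with a pseudocount of 1 for log2 values, no filter on low values and plots in matplotlib 3.10.9. The scripts were tested on simulated data. Alternatives were a pseudocount of 0.1, median-of-ratios scaling, leaving out the 10 most abundant genes, a mean of at least 1 TPM, a 4-fold threshold, the geometric mean, other sets of genes for percentiles and single libraries. The rule named all sterol genes of the list, selected genes of the second list and the 5 genes nearest to the highest. The lists were chosen with earlier results of these data known. Promoters and coordinates came from the RefSeq annotation of Mmul_10, in which all 31 genes were found, and the search used 250 bases before and 50 after the start. Proteins of paralogous genes were not compared here, and some single genes of the second list are not reported here.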

Additional observations from a re-analysis of the deposited data

How the results depend on the processing

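No paired analysis was possible because a single condition was sequenced. Scaling by the median of ratios raised the number of sterol genes at least 2-fold higher in Rep1 from 1 to 3, since it raises Rep1 against Rep2, and turned the differences of *MVK* to 0.18, *SCAP* to 1.02, *LRP1* to 0.17 and *ABCA1* to 0.093. The number at least 2-fold higher in Rep2 ran from 21 to 26 and the median difference from -2.52 to -1.19 over the alternatives. With a pseudocount of 0.1 the differences of genes listed at 0 in Rep1 widened, to -7.43 for *DHCR7*, -8.07 for *NPC1* and -4.24 for *ABCG1*. The median of the mean TPM was 42.1, and 11.8 and 69.8 in the single libraries. The median percentile was 67.1 and 84.7 in them. A single library of 2 always lies less than 1 SD from the mean, so these say nothing of stability. The depth of Rep1 limits low genes, and the read numbers behind single values are known as lower bounds only.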
